A study of Mus musculus with 6 samples.

Results

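The genes described here are 10 adipocyte genes and adipokines of the fat layer of mouse skin. They were chosen by name, with earlier results of these data known. They comprise 5 genes for secreted factors (Adipoq, Lep, Retn, Cfd and C1qtnf3), 2 for transcription factors (Pparg and Cebpa) and 3 for lipid handling (Fabp4, Plin1 and Lpl). Every probe whose accession maps to one of them was taken, which gave 16 of 41174 probes on the array. On each of the 6 arrays all 16 probes gave a signal well above background for the ethanol and for the cyclosporin A sample, and the 10 genes entered the tests among 22756 genes. Where a gene had several probes, the one with the highest mean intensity over the arrays stood for it.

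Mice of strain C57/BL received cyclosporin A, an immunosuppressant that blocks the phosphatase calcineurin, or ethanol as control, and back skin was sampled on days 2, 4 and 7. On each of 6 dual-colour Agilent arrays, Cy5 carried a cyclosporin A sample and Cy3 an ethanol sample of that day, with 2 arrays per day. Age, sex, dose and route are not given in the sources used here. The submitters call the samples biological replicates without naming animals, so p-values here rest on sample-to-sample spread, which may be technical. Ratios are log2 values of cyclosporin A over ethanol, so 0 is no difference and 1 is a doubling. The standard error (SE) is that of limma, which pools the spread over the 3 days, and genes with an adjusted p under 0.05 (Benjamini-Hochberg, over all genes tested) are said to be called. Whole skin was measured, so fewer adipocytes and less RNA per adipocyte cannot be told apart.

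White adipocytes form a layer beneath the dermis that thickens and thins with the hair cycle. Their development depends on PPARγ, the product of Pparg, and C/EBPα, the product of Cebpa, which maintain one another and drive genes for lipid uptake and storage. Mature adipocytes also secrete hormones, the adipokines, among them adiponectin, the product of Adipoq, and leptin, the product of Lep.

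Days 2 and 4 shared a slide, and a different slide carried day 7, so slide and day 7 cannot be told apart, and with no dye swap a gene's own dye effect and treatment cannot be told apart. Day 7 replicate 1 was the noisiest array: over 213 probes printed as several spots, the median SD between spots of 1 probe was 0.25 there and 0.0711 to 0.0841 on the other arrays. It had 126 outlier spots against 15 to 44 elsewhere. Over all genes the ratios of both arrays of day 2 were uncorrelated (r = 0.007), while r was 0.427 at day 4 and 0.588 at day 7. Across all genes 536 were called higher and 145 lower at day 7 (262 and 25 with the deposited ratios).

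Of the 10 genes, 0 were called at day 2, where 0% of all genes tested were, and 0 at day 4, where 0.00439% were. At day 7 limma called 1, C1qtnf3, which was lower, against 2.99% of all genes. On the average over the 3 days it called 3, C1qtnf3 and Cebpa lower and Fabp4 higher, against 13.1% of all genes. At an unadjusted p under 0.05 the numbers were 2, 3 and 5 at days 2, 4 and 7 and 5 on the average, where 9.69%, 15%, 22.1% and 32.5% of all genes tested passed. The differences between days gave 0 calls among the 10, where 0% of all genes were called between days 2 and 4, 0.202% between days 4 and 7 and 0.264% between days 2 and 7. The unadjusted threshold was passed by 0, 1 and 0 of the 10, against 2.24%, 4.46% and 6.14% of all genes. The median over the 10 genes was -0.13, 0.05 and 0.29 at days 2, 4 and 7, and over all genes tested 0.04, 0.04 and 0.03. Median centring in place of loess raised these medians of all genes to 0.39, 0.27 and 0.17. With it 4, 5 and 6 of the 10 were called at days 2, 4 and 7 and 8 on the average. At the 3 days 7, 8 and 8 of the 10 lay above the median of all genes, against 4, 6 and 8 with loess. Median centring called 8004 of all 22756 genes higher and 699 lower at day 2. At days 4 and 7 it called 5250 and 4390 higher and 323 and 579 lower. Without the noisy array, day 7 replicate 1, the averages of C1qtnf3, Cebpa and Fabp4 were -1.70, -0.71 and 0.69 and all 3 passed (adjusted p = 0.00709, 0.0388 and 0.0388 by limma).

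**Figure D1:**
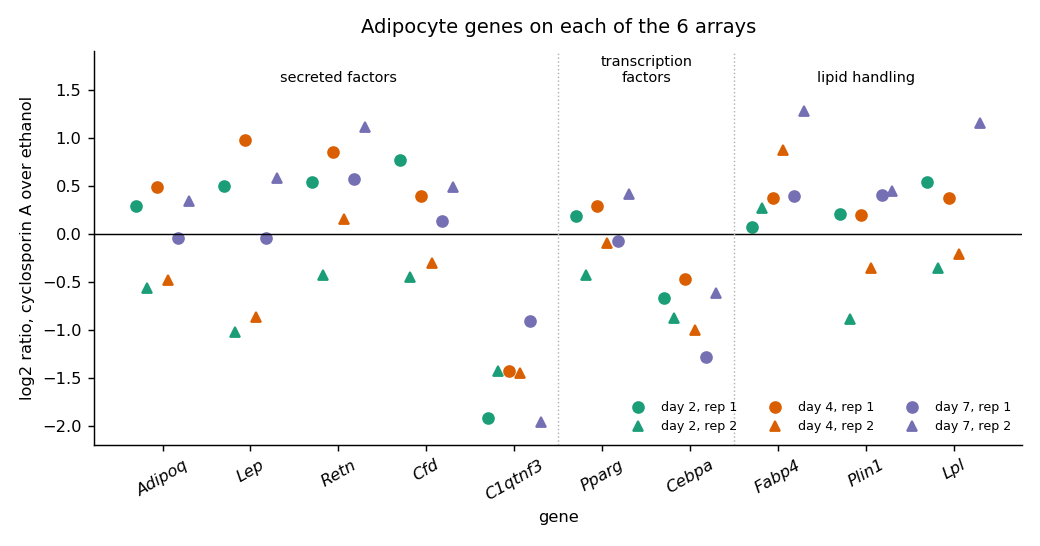
Log2 ratio of cyclosporin A over ethanol (vertical axis) for each gene (horizontal axis) on each of the 6 arrays; colour gives the day and shape the replicate. C1qtnf3 and Cebpa lie below 0 and Fabp4 above 0 on all 6 arrays, while Lep runs from -1.03 to 0.98.

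Adiponectin and leptin transcripts varied from array to array around 0. Adipoq, the gene of the insulin-sensitising hormone adiponectin, had ratios of 0.29 and -0.56 on the arrays of day 2, 0.48 and -0.49 at day 4 and -0.05 and 0.34 at day 7. Its ratios thus lay on both sides of 0 at each day, and its average over days was 0.00 (SE 0.16, adjusted p = 0.993 by limma, 95% interval -0.38 to 0.39). Lep, the gene of the satiety hormone leptin, had ratios of 0.49 and -1.03 at day 2, 0.98 and -0.87 at day 4 and -0.05 and 0.58 at day 7. The arrays on which it was high and low were those on which Adipoq was high and low. The average for Lep was 0.02 (SE 0.28, adjusted p = 0.973 by limma), with a 95% interval from -0.65 to 0.69.

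Spots of the same probe separate error within an array from differences between arrays. The Lep probe was printed 10 times per array. On day 4 replicate 1 its spots ran from 0.88 to 1.06, and on day 4 replicate 2 from -0.94 to -0.73. On day 2 replicate 1 they ran from 0.42 to 0.57, and on day 2 replicate 2 from -1.10 to -0.98. The spots of arrays of the same day therefore did not overlap at days 2 and 4, and their SD was 0.0447 to 0.0684 on 5 arrays and 0.197 on day 7 replicate 1. The SD of Lep between arrays of a day, pooled over days, was 1.01. That was larger than in 99.7% of all genes, whose median was 0.197.

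**Figure D2:**
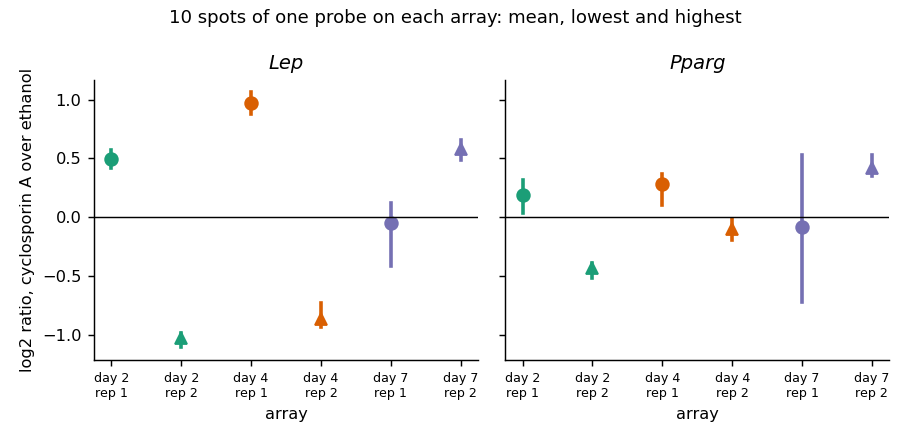
Mean (point), lowest and highest (bar) log2 ratio over the 10 spots of the Lep probe (left) and of the Pparg probe (right) on each array (horizontal axis). Spots of 1 array lie close together except on day 7 replicate 1, where those of Pparg run from -0.72 to 0.53.

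Levels in the single channels are log2 intensities after both channels of all arrays were put on a common scale. Adipoq stood at 14.73 and 15.46 in the ethanol samples of day 2, 14.41 and 14.94 at day 4 and 14.53 and 14.40 at day 7. In the cyclosporin A samples it stood at 15.02 and 14.90, 14.89 and 14.46, and 14.48 and 14.74. The highest of the 12 levels was that of the ethanol sample of day 2 replicate 2, and the range was 1.06 in ethanol and 0.56 in cyclosporin A. For Lep the ethanol levels were 8.90 and 9.66, 8.75 and 9.32, and 8.76 and 8.99, and the cyclosporin A levels 9.39 and 8.63, 9.72 and 8.45, and 8.71 and 9.57. All ethanol levels of Lep lay within the range of its cyclosporin A levels, which was the wider of the 2 (1.28 against 0.92).

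**Figure D3:**
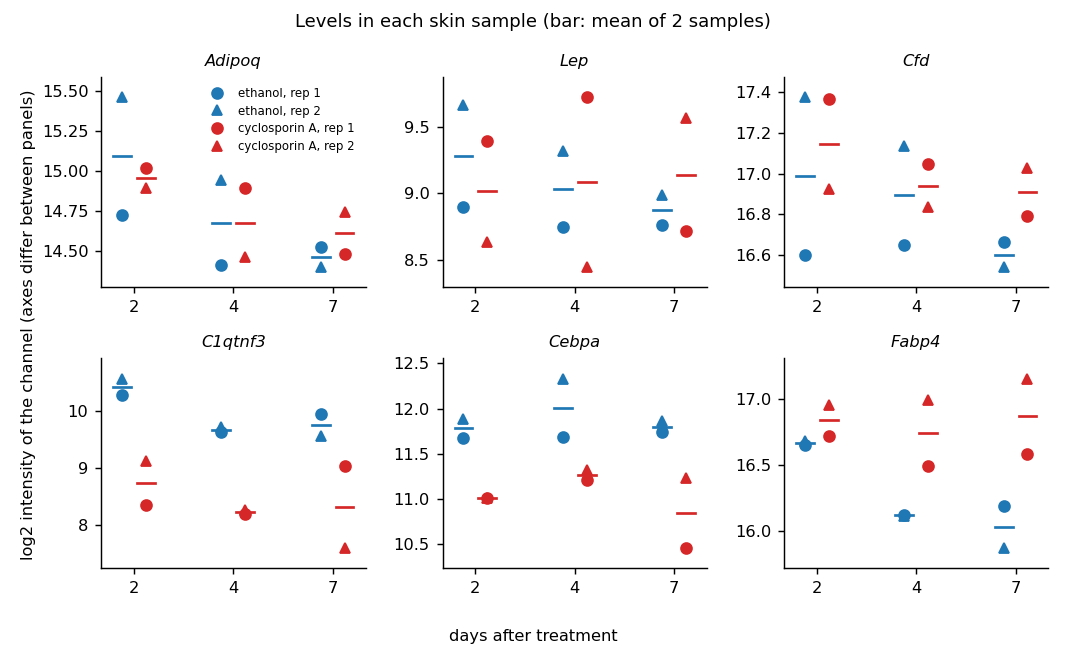
Log2 intensity (vertical axis, a scale of its own for each gene) by days after treatment (horizontal axis) for 6 of the genes; blue is ethanol, red cyclosporin A, circles replicate 1, triangles replicate 2 and bars the mean of 2 samples. The channels are apart at each day for C1qtnf3, Cebpa and Fabp4. They overlap at each day for Adipoq and Lep, and at days 2 and 4 for Cfd.

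Retn and Cfd, a pair of further adipocyte secretory products, did not pass the test. Retn, the gene of resistin, had ratios of 0.54 and -0.43 at day 2, 0.85 and 0.15 at day 4 and 0.57 and 1.11 at day 7. It was above 0 on 5 of 6 arrays, the exception being day 2 replicate 2. Its mean was 0.84 at day 7 (SE 0.27, adjusted p = 0.149 by limma), and its average over days was 0.46 (SE 0.16, adjusted p = 0.0957). A second Retn probe, with no value on day 2 replicate 2, was brighter than the first on 4 of the other 5 arrays but dimmer on day 7 replicate 1 (9.70 against 11.52 in ethanol). It averaged 0.61 and passed (adjusted p = 0.0255 by limma over all probes). That average leaves out day 2 replicate 2, the only array on which the first probe lay below 0. The averages of both probes thus rest on different arrays, and whether the call depends on the probe or on that array was not tested.

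In the channels the ethanol level of Retn was 12.27 on average at day 2, 11.63 at day 4 and 11.44 at day 7, and the cyclosporin A level 12.32, 12.12 and 12.28. The range over the 6 samples was 1.32 in ethanol and 0.47 in cyclosporin A. At day 7 the ethanol level was thus below its day 2 value, while the cyclosporin A level was close to its own. Cfd, the gene of adipsin, a serine protease of the complement pathway that fat secretes in large amounts, had ratios of 0.77 and -0.45 at day 2, 0.40 and -0.30 at day 4 and 0.13 and 0.49 at day 7. It was of both signs at days 2 and 4, like Adipoq and Lep, and averaged 0.17 (SE 0.17, adjusted p = 0.532 by limma).

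C1qtnf3 had the lowest mean of the 10 genes at each day and was the only one called at a single day. It was the lowest on 5 of 6 arrays, with Cebpa below it on day 7 replicate 1. It encodes CTRP3, also called cartducin, a secreted protein of the same family as adiponectin that is made by adipocytes and by cartilage and other connective tissue cells. Its ratios were -1.93 and -1.44 at day 2, -1.44 and -1.45 at day 4 and -0.92 and -1.96 at day 7. It was below 0 on 6 of 6 arrays, as were 8.07% of all genes tested.

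The mean for C1qtnf3 was -1.68 at day 2 (SE 0.25, 3.2-fold lower, adjusted p = 0.471 by limma), the lowest ratio of all genes that day. It was -1.44 at day 4 (adjusted p = 0.179). At day 7 it was -1.44 (SE 0.25, 2.71-fold lower), the ninth lowest of all genes, and passed with an adjusted p of 0.0359 by limma. The average over days was -1.52 (SE 0.14, 2.87-fold lower, adjusted p = 0.00701 by limma, 95% interval -1.86 to -1.18). A second probe gave -1.52, -1.40 and -1.37 at the 3 days and was called at day 7 too (adjusted p = 0.0338 by limma over all probes).

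C1qtnf3 levels were 10.28 and 10.56, 9.63 and 9.71, and 9.95 and 9.56 in the ethanol samples of days 2, 4 and 7, against 8.36 and 9.13, 8.19 and 8.26, and 9.03 and 7.60 with cyclosporin A. The lowest ethanol sample, at 9.56, lay above the highest cyclosporin A sample, at 9.13. The share of all genes separated in this way is not given here, and dye and treatment cannot be told apart. The ratio was below 0 under all alternatives run. The call at day 7 was lost without day 7 replicate 2 (-0.92, adjusted p = 0.156 by limma) and without either array of day 4 (adjusted p = 0.0914 in both cases). It was also lost with signals as processed by the scanner software (-1.91, adjusted p = 0.0759 by limma), the deposited ratios (-1.91, adjusted p = 0.066) and scale normalization (-1.35, adjusted p = 0.0807). The call on the average over days was lost without day 4 replicate 2 alone (-1.52, adjusted p = 0.0735 by limma).

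**Figure D4:**
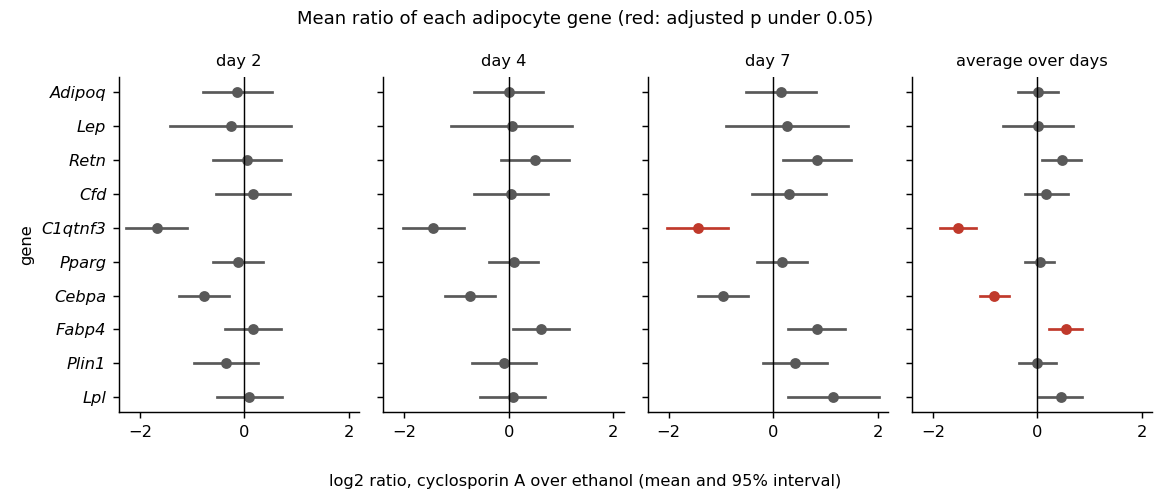
Mean log2 ratio of cyclosporin A over ethanol and its 95% interval (horizontal axis) for each gene at days 2, 4 and 7 and on the average over days; red marks genes called by limma. C1qtnf3 is called at day 7 (-1.44), and C1qtnf3 (-1.52), Cebpa (-0.82) and Fabp4 (0.54) on the average.

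Of the 2 master regulators of adipocyte identity, Cebpa passed the test and Pparg did not. Cebpa had ratios of -0.67 and -0.88 at day 2, -0.47 and -1.01 at day 4 and -1.28 and -0.62 at day 7. It was below 0 on 6 of 6 arrays, and its mean was -0.77, -0.74 and -0.95 at days 2, 4 and 7 (SE 0.2 each), with adjusted p of 0.471, 0.208 and 0.0599 by limma. On the average over days it fell by 0.82 (SE 0.11, 1.77-fold, adjusted p = 0.0135 by limma).

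The ethanol levels of Cebpa ran from 11.68 to 12.33 and those with cyclosporin A from 10.46 to 11.32. As for C1qtnf3, the share of all genes separated in this way is not given here. A second, dimmer probe was also below 0 on all 6 arrays and averaged -0.52 (adjusted p = 0.0337 by limma over all probes). The call was lost with median centring in place of loess (-0.20, adjusted p = 0.278 by limma, with the medians of all genes above 0 given earlier). It was also lost without day 4 replicate 2 (-0.73, adjusted p = 0.0785 by limma). C/EBPα is made in keratinocytes, sebocytes and myeloid cells as well as in adipocytes, and the source of the Cebpa signal was not tested.

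Pparg, the gene of the nuclear receptor that fatty acids and thiazolidinediones activate, had ratios of 0.19 and -0.44 at day 2, 0.29 and -0.10 at day 4 and -0.08 and 0.41 at day 7. These lay on both sides of 0 at each day, as for Adipoq and Lep. The average was 0.04 (SE 0.12, adjusted p = 0.821 by limma), and its 95% interval ran from -0.23 to 0.32. The 10 spots of its probe had an SD of 0.0419 to 0.0858 on 5 arrays and of 0.408 on day 7 replicate 1. In ethanol its levels ran from 11.50 to 12.04, and with cyclosporin A from 11.53 to 12.04.

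Of the lipid-handling genes, Fabp4 passed the test on the average over days. It encodes the fatty acid binding protein aP2, an abundant cytosolic lipid carrier of adipocytes that capillary endothelium and macrophages also make. Its ratios were 0.07 and 0.27 at day 2, 0.37 and 0.87 at day 4 and 0.39 and 1.28 at day 7. It was above 0 on 6 of 6 arrays, as were 15.6% of all genes tested, and replicate 2 was the higher array at each day.

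The mean for Fabp4 was 0.17, 0.62 and 0.83 at days 2, 4 and 7, with adjusted p of 0.837, 0.284 and 0.108 by limma. On the average it rose by 0.54 (SE 0.13, 1.45-fold, adjusted p = 0.0428 by limma). The call was lost when any array but day 7 replicate 1 was left out, with adjusted p of 0.0786 to 0.162 by limma and averages of 0.39 to 0.62. It was lost too with the processed signals (0.57, adjusted p = 0.0573 by limma), without background correction (0.49, adjusted p = 0.0614) and with the mean of its 3 probes (0.48, adjusted p = 0.0649). The ratio was above 0 in all of these, and under median centring the average was 1.63 (adjusted p = 0.000307 by limma).

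The Fabp4 probes were unequal, with averages of 0.54, 0.66 and 0.24. The third lay below 0 on 3 arrays (-0.18, -0.33 and -0.29 on both arrays of day 2 and on day 7 replicate 1). Ethanol levels of Fabp4 were 16.65 and 16.68 at day 2, 16.13 and 16.12 at day 4 and 16.19 and 15.87 at day 7. The cyclosporin A levels were 16.72 and 16.95, 16.49 and 16.99, and 16.58 and 17.15, with a difference of 0.03 from day 2 to day 7 against -0.63 in ethanol. The lowest cyclosporin A level, 16.49, lay below the highest ethanol level, 16.68, so the groups overlapped across days.

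Plin1 encodes perilipin, the coat protein of the adipocyte lipid droplet that guards it against lipases. Its ratios were 0.20 and -0.89 at day 2, 0.19 and -0.36 at day 4 and 0.40 and 0.44 at day 7, and its average was 0.00 (SE 0.15, adjusted p = 0.99 by limma). It was of both signs at days 2 and 4 and above 0 on both arrays of day 7. Under median centring its average was 0.82. Lpl, the lipase that releases fatty acids from circulating triglyceride and that muscle and macrophages make too, had ratios of 0.54 and -0.36 at day 2, 0.37 and -0.22 at day 4 and 1.15 at day 7 replicate 2. Its spot on day 7 replicate 1 was an outlier and was left out, so the fit of day 7 rests on 1 array. The average for Lpl was 0.44 (SE 0.17, adjusted p = 0.134 by limma). Its dimmer probe, measured on all 6 arrays, gave 0.00, -0.49 and 0.57 at the 3 days, with ratios of 0.24 and -1.23 on the arrays of day 4.

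The promoters of these genes were searched for the letters that 3 factors recognise. C/EBPα binds TTGCNNAA and related sites, PPARγ with its partner RXR binds a direct repeat of AGGTCA with 1 base between the copies (DR1), and NFAT, the factor that calcineurin activates, binds around GGAAA. The 250 bases before each start site were searched on both strands in the RefSeq promoters of GRCm38.p6, which hold 10 promoters for 8 of the 10 genes (3 for Pparg, none listed for Fabp4 and Lpl). TTGCNNAA was found in 3 of these 10 promoters and in 9.56% of all 32851. The DR1 was in 0 of 10 and 0.0335% of all, and GGAAA in 6 of 10 and 55.6% of all. The sequences below are those with a TTGCNNAA match, in capitals, and those of Adipoq and of C1qtnf3, which have no such match. Lep is from chr6:29059971-29060220 (plus strand), Plin1 from chr7:79732777-79733026 (minus strand), Pparg from chr6:115421816-115422065 (plus strand), Adipoq from chr16:23146286-23146535 (plus strand) and C1qtnf3 from chr15:10952082-10952331 (plus strand), each 5′ to 3′ and ending at the base before the start site.
Lep: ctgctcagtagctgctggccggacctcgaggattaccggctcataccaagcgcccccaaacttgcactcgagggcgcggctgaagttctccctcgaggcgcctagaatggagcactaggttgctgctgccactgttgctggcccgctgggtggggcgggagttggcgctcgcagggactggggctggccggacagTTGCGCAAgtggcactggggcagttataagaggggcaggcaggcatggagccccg
Plin1: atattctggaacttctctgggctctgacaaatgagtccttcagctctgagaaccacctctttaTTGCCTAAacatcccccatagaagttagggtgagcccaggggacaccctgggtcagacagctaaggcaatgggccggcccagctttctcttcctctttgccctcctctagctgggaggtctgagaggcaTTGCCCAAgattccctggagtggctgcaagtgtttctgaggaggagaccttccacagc
Pparg, most downstream start: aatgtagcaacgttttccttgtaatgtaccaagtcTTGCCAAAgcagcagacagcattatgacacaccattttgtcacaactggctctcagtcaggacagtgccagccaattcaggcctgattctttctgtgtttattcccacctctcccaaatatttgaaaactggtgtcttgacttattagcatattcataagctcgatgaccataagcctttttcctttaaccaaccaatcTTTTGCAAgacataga
Adipoq: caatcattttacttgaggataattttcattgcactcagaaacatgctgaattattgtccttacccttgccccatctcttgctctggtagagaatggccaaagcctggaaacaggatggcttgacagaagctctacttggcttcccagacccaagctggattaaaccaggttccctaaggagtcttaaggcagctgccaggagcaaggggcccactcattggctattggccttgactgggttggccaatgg
C1qtnf3: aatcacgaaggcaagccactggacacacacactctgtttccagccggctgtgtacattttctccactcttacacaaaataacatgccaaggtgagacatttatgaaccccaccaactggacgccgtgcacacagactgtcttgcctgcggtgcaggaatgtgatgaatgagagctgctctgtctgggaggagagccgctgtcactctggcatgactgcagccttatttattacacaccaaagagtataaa

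In Lep the match TTGCGCAA lies with its first base 55 bases before the start and reads the same on both strands. Plin1 has TTGCCTAA at -187 and TTGCCCAA at -58, and the third Pparg promoter has TTGCCAAA at -215 and, on the opposite strand, TTTTGCAA at -16. These 3 genes averaged 0.02, 0.00 and 0.04 over the days, while Cebpa itself was lower, and the matches are letters only, with no measured binding.

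Taken array by array, most of the 10 genes had ratios of one sign on a replicate and of the other sign on its partner at days 2 and 4. On day 2 replicate 1, 8 of 10 were above 0, and on day 2 replicate 2, 1 of 10. The numbers were 8 and 2 of 10 at day 4, and 4 of 9 and 8 of 10 at day 7. The median over the genes was 0.24 and -0.51 at day 2, 0.37 and -0.33 at day 4 and -0.05 and 0.47 at day 7. Over all genes tested, 51.9% to 57.7% lay above 0 on each array. C1qtnf3, Cebpa and Fabp4, the called genes, were of the same sign on all 6 arrays.

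This pattern depended in part on the normalization. The counts of genes above 0 were equal with processed signals, with deposited ratios and without background correction. With background-subtracted signals they differed by 1 gene, on day 7 replicate 1. Under median centring the numbers above the array's own median of all genes were 8, 4, 8, 7, 6 of 9 and 8, so 6 of 10 still lay below it on day 2 replicate 2 but 3 of 10 on day 4 replicate 2. Lep stayed below 0 on these 2 arrays alone, with 0.99, -0.52, 1.48, -0.66, 0.09 and 1.00, while Adipoq was above 0 on all 6 arrays.

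Of 13363 other genes with a symbol and a value on every array, Lep was the gene most like Adipoq over the 6 arrays (Pearson r = 0.998), as a description with no test. The next were Acp5 (0.99), the tartrate-resistant acid phosphatase of osteoclasts and macrophages, Aven, Tmem106c and Tmpo. Lep had Adipoq, Acp5, Cavin2, Tmpo and Tmem106c nearest to it. For C1qtnf3 the nearest gene was Mthfsd (0.994), and Repin1, Panx1 and Gak were also among the 5 nearest; the ratios of these 4 ran only from -0.20 to 0.38. The 6 arrays share 2 slides and a platform, and they are the same arrays for every gene.

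A list of 12 other adipocyte genes, none of them among the 10, had a median of the same sign on 5 of 6 arrays. Its median was 0.28 and -0.35 at day 2, 0.23 and -0.04 at day 4 and 0.08 and 0.16 at day 7, and 9, 1, 11, 6, 9 and 8 of 12 were above 0. Limma called 0 of the 12 at any single day and 0 on the average. The summed intensity of the 10 genes ran from 224865 to 418462 in ethanol and from 259141 to 405359 with cyclosporin A.

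Markers of other tissue parts also varied between replicates. On day 2 replicate 2, where the adipocyte genes were low, 10 of 10 epidermal markers were above 0 (median 0.51), against 0 of 10 endothelial (-0.21), 0 of 8 macrophage (-0.39) and 2 of 10 fibroblast and matrix markers (-0.16). On day 2 replicate 1, 2 of 10 epidermal (-0.45), 7 of 8 macrophage (0.57) and 9 of 10 fibroblast markers (0.78) were above 0, the reverse order. Endothelial markers did not turn, with 4 of 10 above 0 there (median -0.02). At day 4 the medians of these lists had the same sign on both replicates. On replicates 1 and 2 they were 0.10 and 0.05 for epidermal, -0.04 and -0.43 for macrophage and -0.41 and -0.35 for fibroblast markers. On day 4 replicate 2, 0 of 10 skeletal muscle markers were above 0 (median -0.87), and on day 7 replicate 2 again 0 of 10 (-0.84). Sebaceous gland markers had medians from -0.55 to 0.01, and 0 of 9 were above 0 on day 2 replicate 1. At day 7 limma called 2 of 10 muscle, 1 of 10 epidermal and 1 of 9 sebaceous markers lower, and 0 of the endothelial, macrophage and fibroblast markers. Of all genes limma called 0.637% lower at day 7 and 3.4% on the average over days. On the average over days it called lower 4 of 10 muscle markers (Des, Ttn, Actn3 and Ckm), 1 of 9 sebaceous (Awat2), 1 of 8 macrophage (Cd163, -0.63, adjusted p = 0.0433) and 1 of 10 fibroblast markers (Postn, -0.55, adjusted p = 0.0103), and 0 endothelial or epidermal ones.

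Summed intensities of these lists in ethanol and cyclosporin A samples ran from 430241 to 764532 and 408439 to 733469 for epidermis. For fibroblasts they were 361476 to 698865 and 427246 to 686316, for macrophages 99562 to 182416 and 98325 to 153974, and for endothelium 12027 to 16381 and 11860 to 14617. Skeletal muscle gave 470144 to 840754 and 374930 to 661725, and sebaceous gland 110801 to 145070 and 101483 to 136387. Of the sebaceous list, Mc5r was above background on 1 ethanol and 4 cyclosporin A samples and the other 8 on all. These markers differed between samples of a group, and their part in the adipocyte ratios was not tested.

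**Figure D5:**
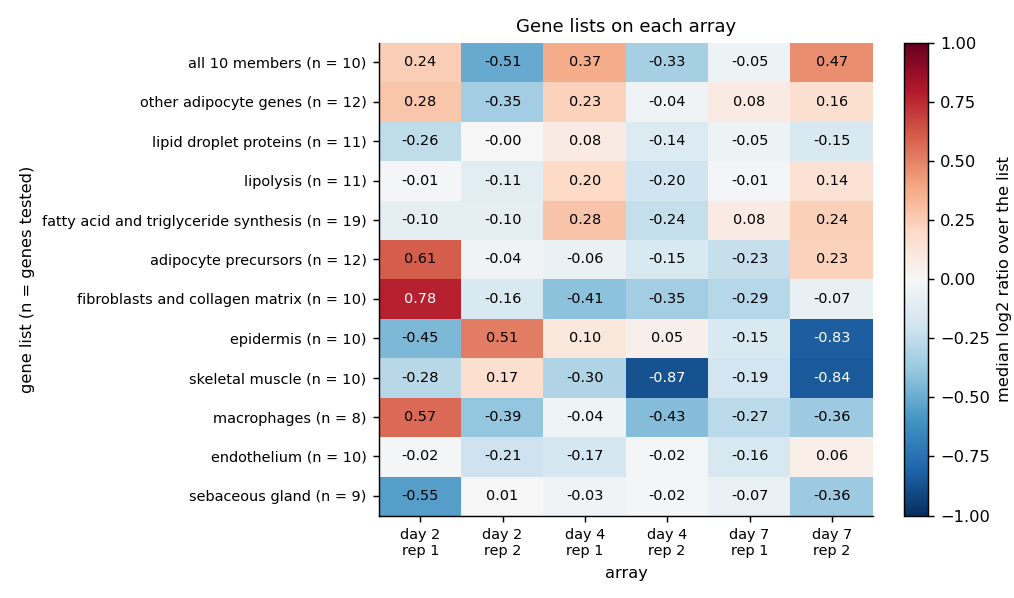
Median log2 ratio of cyclosporin A over ethanol (colour and number) for gene lists (vertical axis, with the number of genes tested) on each array (horizontal axis). The 10 genes and the 12 other adipocyte genes are above 0 on replicate 1 and below 0 on replicate 2 of days 2 and 4, while epidermal markers run from 0.51 on day 2 replicate 2 to -0.83 on day 7 replicate 2.

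Levels within each channel were compared over time, and none of the 10 genes passed the test in either channel. From day 2 to day 7 the ethanol level differed by -0.63 for Adipoq, -0.82 for Retn, -0.67 for C1qtnf3 and -0.63 for Fabp4, each with an unadjusted p under 0.05. In that channel 11.3% of all genes passed this unadjusted threshold. Limma called 0 of the 10 genes there (lowest adjusted p = 0.264), where 0.0352% of all genes were called. The median difference over the 10 genes was -0.46 in ethanol and -0.01 with cyclosporin A, and 9 and 5 of 10 were negative. In the cyclosporin A channel 0 were called (0.976% of all genes), and Lpl alone, on 1 array at day 7, had an unadjusted p under 0.05, as 13.9% of all genes had (difference 0.56, adjusted p = 0.287 by limma). The ethanol sample of day 2 replicate 2 had the highest ethanol level for 9 of the 10 genes, all but Cebpa.

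The wider adipocyte programme was tested through 141 of 147 further genes in 11 lists. At days 2 and 4 limma called 0 of them, and at day 7 it called 5, 3 higher and 2 lower (2.36% and 0.637% of all genes). Lipid synthesis had 2 of the higher ones. Fasn, the fatty acid synthase, had ratios of 1.02 and 1.49 at day 7 and rose by 1.25 (SE 0.16, adjusted p = 0.017 by limma). Scd2, a stearoyl-CoA desaturase, had 1.01 and 1.44 and rose by 1.22 (SE 0.16, adjusted p = 0.0175).

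Dio2, which makes active thyroid hormone and is a gene of brown fat, was above 0 on all 6 arrays (0.52 to 0.95) and rose by 0.82 at day 7 (SE 0.11, adjusted p = 0.0211 by limma). Of the 9 brown and beige genes tested, 8 were above 0 on day 7 replicate 1 (median 0.13) and 5 on replicate 2 (0.07). Both genes called lower at day 7 have roles in signalling. Hcar2, the niacin and ketone body receptor that restrains lipolysis, fell by 0.92 (adjusted p = 0.0447 by limma). Fst, the secreted activin antagonist follistatin, fell by 0.94 (adjusted p = 0.0414). All 5 are made outside adipocytes too, and 10 of 10 markers of the growing hair follicle rose at day 7 as well (median 3.81). Their part in these ratios was not tested. At day 7 all 5 kept their direction under every alternative run. With processed signals, with deposited ratios and without either array of day 7, 0 of the 141 were called at day 7, and without either array of day 4, 2 were. Median centring called 32 of the 141 at day 7, and of all 22756 genes it called 4390 higher and 579 lower.

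The lists that hold none of Fasn, Scd2, Dio2, Hcar2 and Fst had no calls at a single day. Of 11 lipid droplet proteins 0 were called at any day, the lowest p being that of Fitm1, a protein of droplet budding (-0.75 at day 4, adjusted p = 0.179 by limma). Of 8 adipokine receptors 0 were called at a single day, with Cdh13, the T-cadherin that binds adiponectin, at -0.66 at day 7 (adjusted p = 0.0836). On the average over days Cdh13 was called lower (-0.39, adjusted p = 0.0391 by limma) and lay below 0 on all 6 arrays, and Fitm1 was called lower as well (-0.55, adjusted p = 0.0208). The skeletal muscle markers Des, Ttn, Actn3 and Ckm were also called lower on that average, and the part of muscle in the Fitm1 ratio was not tested. Of 12 paralogs of C1qtnf3, 0 were called at any day and 1, C1qtnf9, was called lower on the average (-0.31, adjusted p = 0.0491 by limma). The paralog with the lowest p, C1qtnf12, had the opposite sign at day 7 (0.59, adjusted p = 0.0651 by limma), with ratios of 0.61 and 0.56. Of 18 other transcription regulators 0 were called at a single day, and Cebpd, which acts before Cebpa in adipogenesis, was at -0.51 at day 4 (adjusted p = 0.224).

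Among 12 precursor genes 0 were called at any day, with Fabp7 at 0.68 at day 7 (adjusted p = 0.0575 by limma, above background in 2 of 6 ethanol samples). On the average over days 5 of the 12 were called, 2 higher and 3 lower, where 9.68% and 3.4% of all genes were. In uptake, Akt2, a kinase of the insulin pathway, was at -0.71 at day 4 (adjusted p = 0.216). Slc7a10, an amino acid transporter that marks white adipocytes, was at -0.56 at day 2 (adjusted p = 0.471). Cideb, Lcn2 and Ucp1 were on the array but did not pass the filter on dim probes. On the average over days 20 of the 141 were called, 11 higher and 9 lower (9.68% and 3.4% of all genes).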

How the data were processed

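Back skin RNA of 6 cyclosporin A and 6 ethanol samples was hybridised as 6 dual-colour arrays. Per the file headers, the deposited intensity columns hold median pixels and local background of each spot, and processed signals background-subtracted and dye-normalized by the scanner software. That was version 9.1 of Agilent Feature Extraction, as the submitters' processing notes state. The deposited log10 ratios of Cy5 over Cy3 equalled the scanner ratio column (largest difference 0). From the deposited intensities, log2 ratios were computed with limma 3.58.1 in R 4.3.3 with the data.table package (version 1.17.8): normexp with offset 50, loess within arrays, control and outlier spots left out. The filter on dim probes asked for a signal well above background, for either dye, on both arrays of at least 1 day. It left 27942 probes and 22756 genes, 13479 of them with a symbol from their accession in RefSeq. The genome build of the array design is not given in the sources used here.

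One mean per day was fitted to all 6 arrays (lmFit and eBayes, Benjamini-Hochberg over all genes). Single channels were fitted alone after Aquantile scaling. The fit was tested on simulated data. With 2 arrays per day their number limits the precision. The 10 genes, the lists and the rules were chosen with earlier results of these data known. Named were all members with every probe, of other lists the genes called on a day or else that with the lowest p, and the 5 genes most like Adipoq, Lep and C1qtnf3, of which 1 is not reported here. The replicate numbers in the titles were checked for pairing by correlating the deviations of same-numbered arrays (0.01, -0.28 and -0.02) and were not used as pairs.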

Additional observations from a re-analysis of the deposited data

How the results depend on the processing

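The number of arrays, and the noise of day 7 replicate 1, limit what can be called. Under median centring in place of loess the median of all genes was 0.39, 0.27 and 0.17 at days 2, 4 and 7. Median centring gave 4, 5 and 6 members called at these days and 8 on the average. It called 50, 41 and 32 other adipocyte genes at these days. Of all 22756 genes it called 8004, 5250 and 4390 higher and 699, 323 and 579 lower. It turned Plin1 on the average to 0.82, C1qtnf12 and Fst at day 2 to 0.57 and 0.42, and Cebpd at day 7 to 0.70. Members with means below 0 that it put above 0 without a call were Adipoq (0.87 and 0.93 at days 2 and 4), Plin1 (0.55 and 0.76), Lep (0.23 at day 2) and Pparg (0.62 at day 2). Of the members, 0 were called at day 7 with processed signals, deposited ratios, scale normalization or the replicate block (adjusted p = 0.0695 by limma for C1qtnf3). Other adipocyte genes at day 7 numbered 0 with processed signals and with deposited ratios, and 3 with scale normalization and with no filter on dim probes. Leaving out 1 array gave 0 to 1 members at day 7, 0 to 3 on the average and 0 to 6 other adipocyte genes at day 7, with 0 members at day 7 without either array of day 4 or day 7 replicate 2, and 0 on the average without day 4 replicate 2. The replicate block, on numbers that do not pair the samples, called Lpl on the average (0.57, adjusted p = 0.0495 by limma). The fit to days 2 and 4 alone changed no count of members called on those days. Fits on background-subtracted signals were added after seeing the data, since the planned fit on mean pixel intensity could not be run. The causes of these differences were not tested.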

Other observations

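Outside the lists' single-day calls, the average over days held further genes of fat biology. Tbx1, a transcription factor that marks beige fat and that skin also uses, averaged 0.75 (SE 0.14, adjusted p = 0.0243 by limma), with -0.08 and 0.73 at day 2, 0.38 and 1.19 at day 4 and 1.09 and 1.18 at day 7. Pi16, a marker of fascial fibroblast progenitors, averaged -0.52 (adjusted p = 0.0404 by limma), but stood at 0.70 on day 2 replicate 1 and between -0.16 and -1.17 on the other 5 arrays. Cd24a, a marker of adipocyte progenitors that hair follicle keratinocytes also make, averaged 0.46 (adjusted p = 0.0236 by limma). Tbx1, Pi16 and Cd24a were chosen after their values were seen. Over all genes tested, 9.68% were called higher and 3.4% lower on the average over days. Of the other genes of the brown and beige list, Dio2, Elovl3 and Otop1 averaged 0.79, 0.44 and 0.37. Tmem26 and Pank1 averaged 0.009 and -0.004, and Tnfrsf9, Cox8b and Cox7a1 averaged -0.06, -0.11 and -0.20. Otop1 and Tnfrsf9 were above background in 0 ethanol samples.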
